A study of Caenorhabditis elegans with 33 samples.

Results

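The comparison asks how a mutation in eat-2 changed RNA levels in Caenorhabditis elegans that lacked mxl-2 function and fed on bacteria expressing double-stranded RNA against daf-16. Polyadenylated RNA of 3 eat-2(ad465);mxl-2(tm1516) libraries was compared with that of 3 mxl-2(tm1516) libraries. The strains are called eat-2;mxl-2, or the double mutant, and mxl-2. These 6 libraries, out of 33 in the series, were chosen by the strain and RNAi in their labels. All 17354 genes with enough counts for a test, of 17907 in the deposited table, entered the comparison. Both groups were whole hermaphrodites at adult day 2, grown on HT115(DE3) E. coli at 16 °C up to the last larval stage (L4) and at 20 °C from then on. They shared the mxl-2(tm1516) allele, the daf-16 RNAi, and 5-fluorodeoxyuridine (FUdR), which was added at L4 to keep progeny from forming. Each library pooled about 3000 animals from its own synchronized population, so the spread below is between populations. The other groups used here are eat-2(ad465);mxl-2(tm1516) and mxl-2(tm1516) on pha-4 RNAi and on empty vector (EV), with 3 libraries each. A further pair on daf-16 RNAi consists of eat-2(ad465) with 2 libraries and N2, the wild type, with 3.

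EAT-2 is a subunit of a nicotinic acetylcholine receptor in pharyngeal muscle. Worms without it pump food more slowly, and eat-2 mutants are a long-used genetic model of dietary restriction. DAF-16 is the FoxO transcription factor that insulin-like signalling keeps out of the nucleus and through which reduced insulin signalling lengthens life. MXL-2 is a Max-like protein that binds DNA together with MML-1, the worm Mondo protein, and belongs to the Myc family of transcription factors, as does MXL-1 with its partner MDL-1. PHA-4 is the FoxA factor that specifies the pharynx in the embryo and acts in dietary restriction in adults.

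Library totals in the 6 libraries ran from 25.6 to 30.6 M counts, where M is 10 to the power of 6. Levels are given as CPM, the count per M counts of the library after TMM scaling, in the order of replicates 1, 2 and 3. In a library of 27.7 M counts a gene at 1 CPM has about 28 counts, so levels well under 1 CPM rest on few counts. In each group, replicate 2 stood apart from the other two libraries. In the mxl-2 group, replicates 1 and 3 correlated at r = 0.993 across genes (log2 CPM), whereas replicate 2 correlated with them at 0.828 and 0.817 and with the 3 eat-2;mxl-2 libraries at 0.917 to 0.927. In the eat-2;mxl-2 group, 9.78% of the TPM of replicate 2 lay outside the deposited table, against 2.47% and 2.63% for replicates 1 and 3. Summed over 31 major sperm protein genes, the level was 87.09, 150 and 113.2 CPM in eat-2;mxl-2, against 2161, 7.41 and 2332 CPM in mxl-2. Vitellogenin genes, which encode yolk, summed to 51100, 31250 and 56870 CPM in the double mutant and to 37100, 133000 and 40410 CPM in mxl-2. The mxl-2 replicate 2 library thus held the lowest sperm and the highest yolk sum of the 6. Where leaving it out ended the call of a named gene or moved a count by over 1.5 times, the value without it is given. Some moves of 1 or 2 calls in a list are left out. The library numbers in the labels run from 52 to 54 for the double mutant and from 13 to 15 for mxl-2. If these numbers mark batches, batch and strain cannot be told apart.

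**Figure D1:**
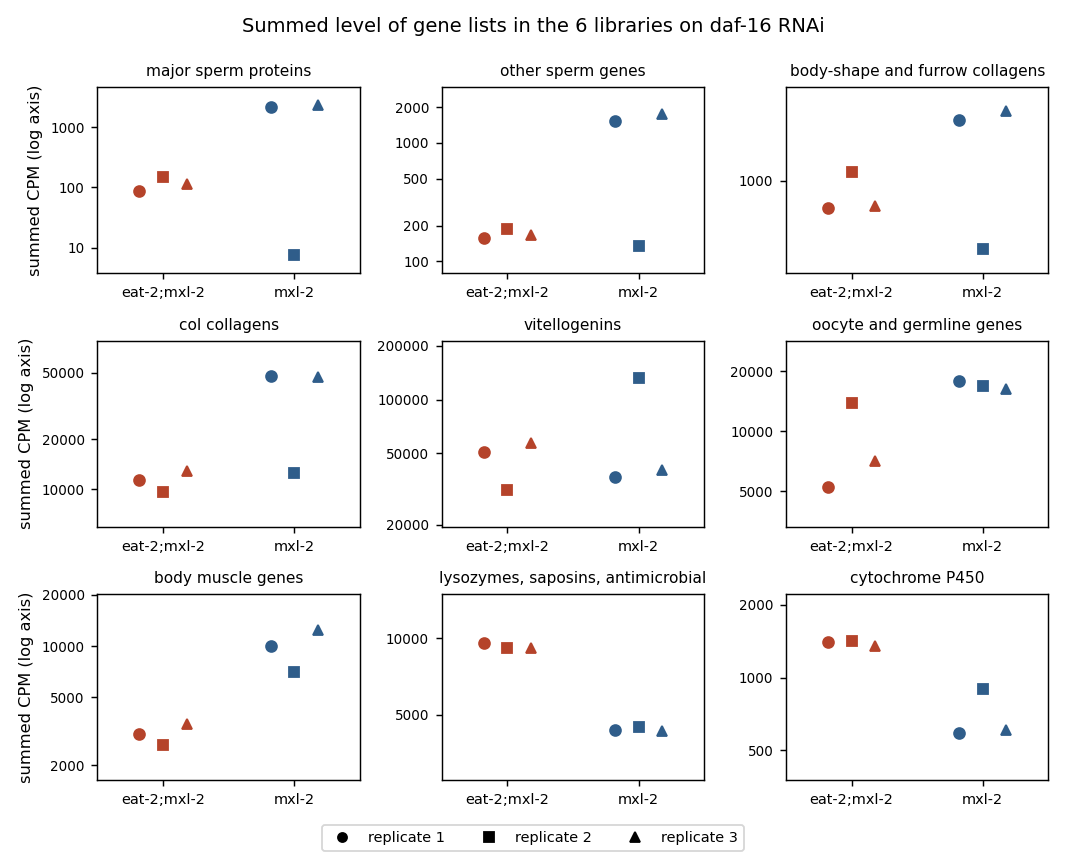
Summed level of 9 gene lists (CPM, log axis) in the 3 eat-2;mxl-2 and the 3 mxl-2 libraries on daf-16 RNAi; each point is 1 library. The mxl-2 replicate 2 library lies with or below the eat-2;mxl-2 libraries for sperm genes and body-shape collagens, whereas for body muscle genes, lysozymes and cytochrome P450 genes all 3 mxl-2 libraries lie to one side of the eat-2;mxl-2 libraries.

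The targeted genes were examined first. The mxl-2 transcript was low in both strains, at 3.35, 8.32 and 3.15 CPM in eat-2;mxl-2 and 3.43, 5.83 and 3.21 CPM in mxl-2, against 70.1 ± 5.90 CPM in N2 on the same RNAi (SD, n = 3). The eat-2 transcript was near the detection limit in both, at 0.062, 0.265 and 0 CPM in the double mutant and 0.236, 0.081 and 0.281 CPM in mxl-2. These ranges overlapped, so eat-2 RNA does not separate the strains at this depth. The daf-16 gene (chromosome I, 10750498 to 10776703, plus strand, WBcel235) had 43.2, 47.2 and 41.4 CPM in the double mutant and 105, 76.9 and 115.4 CPM in mxl-2 on daf-16 RNAi. On EV, without RNAi against it, the means were 95.2 ± 14.3 CPM in eat-2;mxl-2 and 186 ± 23.8 CPM in mxl-2 (SD, n = 3 each). The double mutant thus had less daf-16 RNA than mxl-2 on daf-16 RNAi (log2 fold change -1.18 ± 0.28 SE, adjusted p = 0.00313, edgeR quasi-likelihood test with Benjamini-Hochberg adjustment over all genes tested), with no overlap between the 3 libraries of each. The strain difference on EV was -0.97 (adjusted p = 0.0331), and the test of the difference between the feedings gave an adjusted p of 0.79. With an offset for gene length, described below, the daf-16 difference on daf-16 RNAi was -0.30 (adjusted p = 0.135). For pha-4, levels were 4.37, 7.64 and 5.52 CPM in the double mutant and 6.66, 17.1 and 9.40 CPM in mxl-2, which did not pass the test (adjusted p = 0.0533). The pha-4 difference did pass in 7 of 15 alternative settings, among them DESeq2, and kept its direction in all 15.

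Of the 17354 genes, 6230 (35.9%) were called at an adjusted p under 0.05, of which 3253 (18.7% of genes) were higher and 2977 (17.2%) lower in eat-2;mxl-2. The median log2 fold change over all genes was 0.04. The list counts below are to be read against the shares of 18.7% higher and 17.2% lower. Changes of more than 1 on the log2 scale made up 4581 of the calls, 1934 higher and 2647 lower. In 7264 genes (41.9%) the CPM values of the groups did not overlap, and 4566 genes were both called and not overlapping. Without mxl-2 replicate 2, 7574 of 17326 genes (43.7%, with 23.6% higher and 20.1% lower) were called, and 5593 of the 6230 calls were kept in the same direction. The count ranged from 3350 without eat-2;mxl-2 replicate 1 to that 7574 over the 6 fits that left out 1 library. Leaving out mxl-2 replicate 1 gave 3831 calls, and leaving out mxl-2 replicate 3 gave 3476. Without eat-2;mxl-2 replicate 3 there were 3879 calls. The fit was made over all 33 libraries, and over the 6 libraries alone 2766 genes were called, 38.4% of them higher.

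**Figure D2:**
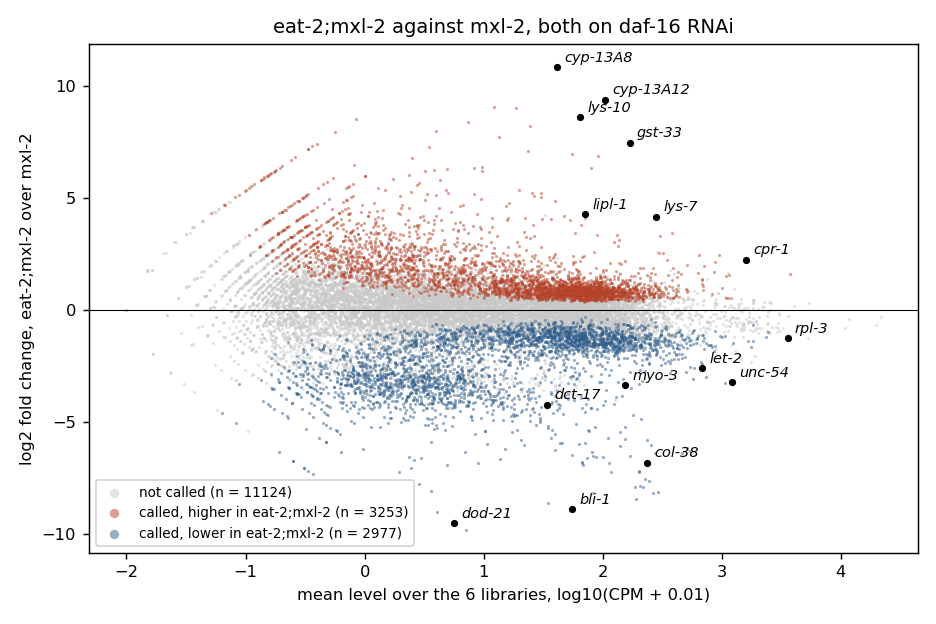
Log2 fold change of eat-2;mxl-2 over mxl-2 on daf-16 RNAi against the mean level over the 6 libraries (log10 of CPM + 0.01), 1 point per gene. Coloured points passed an adjusted p of 0.05: 3253 were higher and 2977 lower in eat-2;mxl-2, and 15 genes named in the text are labelled.

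The direction of change moved with gene length. Genes in the fifth with the shortest exons (51 to 729 bases) had a median log2 fold change of 0.41, with 23.5% called higher and 8.77% called lower. Genes in the fifth with the longest exons (2161 bases and over) had a median of -0.80, with 5.39% called higher and 39.3% called lower. All 3 eat-2;mxl-2 libraries had short genes above long ones, with differences of 0.62 to 0.81 (log2, relative to the mean of the 33 libraries), and in all 3 mxl-2 libraries the difference was below 0, at -0.52 to -0.45. An alternative fit with a length offset for each library called 5149 genes, 43.4% of them higher. Where a gene named below loses its call or direction in that fit, its value is given, and for some lists the counts are. List medians from that fit are not given below, and several changed sign. The median went from -0.03 to 0.50 for neuron genes and from 0.27 to -0.24 for small heat shock protein genes. For cathepsin and aspartyl protease genes it went from 0.22 to -0.14. The part of length in the other results was not tested.

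Many genes for detoxifying enzymes rose in eat-2;mxl-2. Among 72 cytochrome P450 genes, whose products oxidise xenobiotics, fatty acids and sterols, 35 were called higher and 1 lower, where 18.7% of all genes tested were called higher and 17.2% lower. Of the 72, 32 were called higher and did not overlap between groups, where 24.7% of all genes, called or not, were higher without overlap. Of all 6230 called genes, 4566 did not overlap. The median log2 fold change of the 72 was 1.33, against 0.04 for all genes. Leaving out eat-2;mxl-2 replicate 1 or 3 left 25 or 27 called higher, and without mxl-2 replicate 1, 2 or 3, 22, 36 or 21. Over the 6 libraries alone 17 were called higher. The cyp-13A12 gene had 172, 304 and 151 CPM in eat-2;mxl-2 and 0.197, 0.283 and 0.442 CPM in mxl-2 (log2 fold change 9.39 ± 1.83 SE, adjusted p = 0.000568, edgeR). All 3 double mutant libraries were thus at over 100 CPM and all 3 mxl-2 libraries under 1. The neighbouring family member cyp-13A8 had 39.5, 158 and 49.7 CPM in the double mutant and a total of 3 counts over the mxl-2 libraries, a ratio of 1928 (95% interval 659 to 9349.7) by counting error alone. For cyp-13A6 the levels were 5.36, 7.22 and 6.51 CPM in the double mutant and 0.197, 0.283 and 0.763 CPM in mxl-2 (log2 fold change 3.93 ± 0.66 SE, adjusted p = 0.000147). The members of the cyp-13A family are near relatives, and reads that fit more than one of them could have been shared by the authors' counting.

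Conjugating enzymes included single genes with large rises. Of 110 glutathione S-transferase and UDP-glucuronosyltransferase genes, whose products attach glutathione or glucuronic acid to small molecules, 21 were called higher and 4 lower (median 0.35). Over all genes tested 18.7% were called higher, a share that the 21 of 110 did not clearly exceed. The list's counts were 13 and 7 with the length offset. The gst-33 gene had 259, 498 and 249 CPM in eat-2;mxl-2, against 2.36, 0.729 and 2.53 CPM in mxl-2 (log2 fold change 7.48 ± 1.5 SE, adjusted p = 0.00074, edgeR). For gst-44 the values were 106, 270.2 and 95.5 CPM in the double mutant and 1.97, 1.86 and 2.01 CPM in mxl-2 (log2 fold change 6.33 ± 1.17 SE, adjusted p = 0.000349). In both genes replicate 2 of the double mutant was the highest, and all 3 double mutant libraries lay far above the mxl-2 libraries. The ugt-18 gene had 30.8, 30.8 and 27.7 CPM in eat-2;mxl-2 and 0.749, 4.33 and 0.402 CPM in mxl-2 (log2 fold change 4.02 ± 0.62 SE, adjusted p = 7.17e-05). Among the more abundant members, gst-1 reached 565, 469 and 489 CPM in the double mutant and 251, 271 and 227 CPM in mxl-2 (log2 fold change 1.02 ± 0.18 SE, adjusted p = 0.000262), and with the length offset it did not pass (adjusted p = 0.0667). Smaller rises were called for ugt-9, at 7.10, 4.88 and 8.40 CPM in the double mutant and 2.09, 1.42 and 1.69 CPM in mxl-2 (log2 fold change 1.97 ± 0.37 SE, adjusted p = 0.000379).

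Some lysozyme genes were among the strongest rises. Of 92 genes for lysozymes, saposin-like proteins and antimicrobial peptides, which break down or lyse bacteria, 24 were called higher and 5 lower, where 18.7% and 17.2% of all genes were. These counts were 20 and 9 with the length offset, and without mxl-2 replicate 3, 18 and 1. All 24 were without overlap, as were 4566 of all 6230 called genes. The summed level was 9556, 9178 and 9153 CPM in eat-2;mxl-2 and 4354, 4484 and 4296 CPM in mxl-2, with mxl-2 replicate 2 close to its replicates. The lys-10 gene (chromosome IV, 8332826 to 8333518, plus strand, WBcel235) had 143, 113 and 129 CPM in the double mutant and 0.197, 0.526 and 0.241 CPM in mxl-2 (log2 fold change 8.62 ± 0.82 SE, adjusted p = 2.56e-07, edgeR). The lys-7 gene, known from pathogen responses and as a DAF-16 target, had 591, 551 and 462 CPM in eat-2;mxl-2 and 32.2, 11.3 and 45.3 CPM in mxl-2 (log2 fold change 4.17 ± 0.49 SE, adjusted p = 3.71e-06). Both lysozyme genes were at least 10 times higher in every double mutant library than in any mxl-2 library. The saposin-like gene spp-14 had 706, 653 and 698 CPM in the double mutant, against 241, 207 and 235.15 CPM in mxl-2 (log2 fold change 1.59 ± 0.24 SE, adjusted p = 5.86e-05). For spp-2 the levels were 219.9, 247 and 241 CPM in the double mutant and 14.1, 57.1 and 27.6 CPM in mxl-2 (log2 fold change 2.84 ± 0.47 SE, adjusted p = 0.000143).

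C-type lectins, carbohydrate-binding proteins of which many are secreted in infection, moved in both directions. Of 175 tested, 48 were called higher and 15 lower (median 0.88), where 18.7% and 17.2% of all genes were. All 48, and 4 of the 15, were without overlap, as were 4566 of all 6230 called genes. In the length-offset fit 32 were higher and 23 lower. Without mxl-2 replicate 1, 27 were called higher and 8 lower, and without eat-2;mxl-2 replicate 1, 35 and 3. Leaving out eat-2;mxl-2 replicate 3 or mxl-2 replicate 3 gave 4 or 6 called lower. The abundant clec-88 had 603, 418 and 579 CPM in eat-2;mxl-2 and 175, 206 and 154.8 CPM in mxl-2 (log2 fold change 1.58 ± 0.20 SE, adjusted p = 8.94e-06, edgeR). For clec-91 they were 344, 236 and 323 CPM in the double mutant and 104.2, 95.4 and 90.5 CPM in mxl-2 (log2 fold change 1.64 ± 0.20 SE, adjusted p = 7.63e-06). The clec-4 gene went the other way, with 1.02, 1.17 and 1.29 CPM in eat-2;mxl-2 and 17.5, 31.8 and 16.5 CPM in mxl-2 (log2 fold change -4.23 ± 1.28 SE, adjusted p = 0.0148), though without eat-2;mxl-2 replicate 1 its adjusted p was 0.0617 and without replicate 3 it was 0.0509. The nlp-29 and nlp-28 genes, which encode antimicrobial peptides of the skin, were also called higher. Levels of nlp-29 were 64.9, 87.3 and 65.9 CPM in the double mutant and 9.62, 30.1 and 12.01 CPM in mxl-2 (log2 fold change 2.07 ± 0.45 SE, adjusted p = 0.00151), and those of nlp-28 were 87.6, 109 and 87.8 CPM in the double mutant and 8.95, 31.5 and 12.8 CPM in mxl-2. Over the whole list of 105 FLP and NLP neuropeptide genes, 16 were called higher and 3 lower, where 18.7% and 17.2% of all genes were. Neither count exceeded the share over all genes. Without mxl-2 replicate 2 the counts were 15 and 5. Calls of higher levels numbered 8 or 10 without eat-2;mxl-2 replicate 1 or 3, and without mxl-2 replicate 1 or 3 there were 7 or 9. With a covariate for sperm RNA in the model, 62 were called higher and 3 lower, and with the length offset 9 and 7.

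The other large rises came from several families. The stdh-2 gene, annotated by its name as a steroid dehydrogenase family member, had 18.9, 35.7 and 18 CPM in eat-2;mxl-2 and 3 counts in all over the mxl-2 libraries, a ratio of 585 (95% interval 199.8 to 2838). The col-165 collagen gene had 16.0, 79.6 and 15.8 CPM in the double mutant and 5 counts in mxl-2, a ratio of 513 (95% interval 219 to 1579.7), and phat-5, a pharyngeal gland gene, had 13.98, 23.1 and 7.38 CPM in the double mutant and 3 counts in mxl-2, a ratio of 355 (95% interval 121 to 1725). Further genes with large rises, col-74, the linker histone gene hil-7 and the cuticlin gene cut-3, averaged 49.1 ± 59.8, 46.9 ± 26.4 and 110.3 ± 18.6 CPM in eat-2;mxl-2, against 0.16 ± 0.0413, 0.335 ± 0.119 and 0.888 ± 1.195 CPM in mxl-2 (SD, n = 3 each). Their log2 fold changes were 8.22, 7.11 and 6.95 (edgeR adjusted p = 0.00259, 0.00173 and 0.00362).

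**Figure D3:**
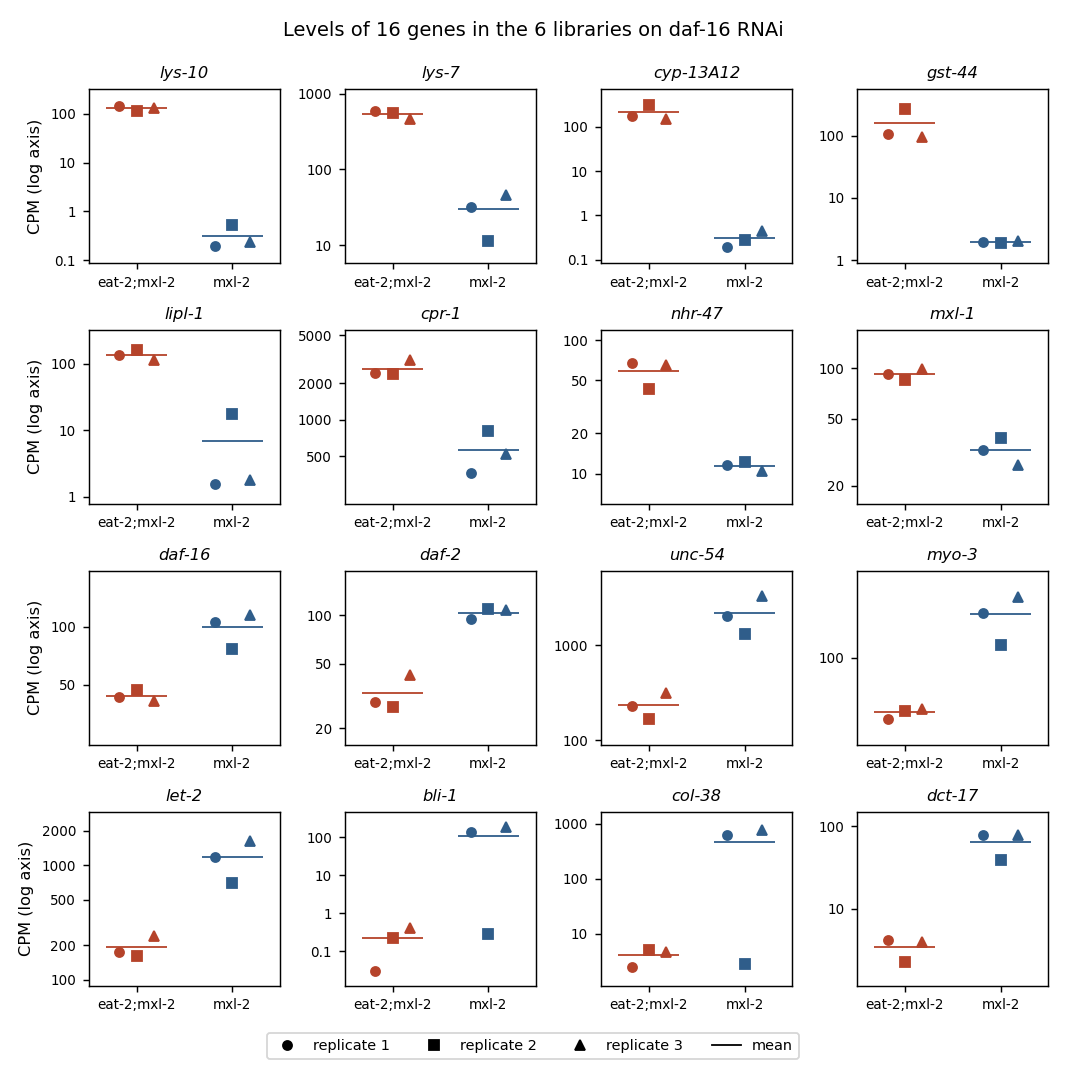
CPM (log axis) of 16 genes in each eat-2;mxl-2 library (red, left) and each mxl-2 library (blue, right) on daf-16 RNAi; lines are means of 3 libraries. The groups do not overlap for any of the 16 genes other than bli-1 and col-38, for which mxl-2 replicate 2 lies among the eat-2;mxl-2 libraries.

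Genes of body wall muscle fell together. Of 11 body muscle genes, 10 were called lower in eat-2;mxl-2, where 17.2% of all genes were, with a median log2 fold change of -2.27. All 10 were without overlap, as were 4566 of all 6230 called genes. The summed level of the 11 was 3063, 2630 and 3486 CPM in the double mutant and 9959, 7006 and 12480 CPM in mxl-2. The major body wall myosin heavy chain gene unc-54 (chromosome I, 14855901 to 14863482, minus strand, WBcel235) had 228, 166.4 and 316 CPM in the double mutant and 2033, 1329 and 3289.7 CPM in mxl-2 (log2 fold change -3.23 ± 0.46 SE, adjusted p = 3.18e-05, edgeR). For myo-3, the second body wall myosin, the levels were 23.4, 28.5 and 29.7 CPM in eat-2;mxl-2 and 288, 136 and 423 CPM in mxl-2 (log2 fold change -3.37 ± 0.42 SE, adjusted p = 7.63e-06). The paramyosin gene unc-15 averaged 215 ± 52.2 CPM in the double mutant and 1139 ± 303 CPM in mxl-2, and the obscurin-related unc-89 averaged 17.99 ± 6.44 CPM in the double mutant and 170.0 ± 121 CPM in mxl-2 (SD, n = 3 each), with log2 fold changes of -2.40 and -3.24. In each of these 4 genes mxl-2 replicate 2 was the lowest of its group and still above all 3 double mutant libraries. An actin gene, act-4, had 626, 553 and 777 CPM in eat-2;mxl-2 and 1951, 1349.8 and 2136 CPM in mxl-2 (log2 fold change -1.48 ± 0.32 SE, adjusted p = 0.00156). The count was 9 or 10 of 11 in each of the 6 fits that left out 1 library and 10 of 11 with the length offset, although these genes are long (median exon length 2383 bases). Markers of the other tissues were fewer among the calls: 3 of 12 intestine genes were lower (0 without mxl-2 replicate 1 or 3 or eat-2;mxl-2 replicate 1) and 2 higher, 4 of 12 hypodermis genes lower, 2 of 16 pharynx genes higher, and 1 of 19 neuron genes lower and 1 higher. Leaving out mxl-2 replicate 2 gave 3 pharynx and 3 neuron genes called lower. In whole-animal RNA, fewer cells of a type and less RNA per cell cannot be told apart.

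Collagen IV, the basement membrane collagen made largely by body muscle, fell as well. The let-2 gene had 175, 159 and 239.8 CPM in the double mutant and 1170.0, 699.7 and 1638 CPM in mxl-2 (log2 fold change -2.61 ± 0.37 SE, adjusted p = 2.79e-05, edgeR). Its partner chain emb-9 had 139, 130.1 and 189 CPM in the double mutant and 709, 419 and 984 CPM in mxl-2 (log2 fold change -2.20 ± 0.34 SE, adjusted p = 6.78e-05), and with the length offset emb-9 did not pass (adjusted p = 0.133). Glycolysis and gluconeogenesis genes, several of them abundant in muscle, gave 8 calls lower and 1 higher of 24, and between 4 and 5 calls lower without eat-2;mxl-2 replicate 1 or 3 or mxl-2 replicate 1 or 3. The aldolase gene aldo-1 averaged 46.3 ± 4.67 CPM in eat-2;mxl-2 and 132 ± 30.0 CPM in mxl-2 (log2 fold change -1.51 ± 0.26 SE, adjusted p = 0.000204). For pyc-1, pyruvate carboxylase, the means were 116 ± 31.004 CPM in the double mutant and 449 ± 78.8 CPM in mxl-2 (log2 fold change -1.95 ± 0.44 SE, adjusted p = 0.00186, SD and n = 3 each). The glyoxylate enzyme gene icl-1 had 162, 175.9 and 166.1 CPM in eat-2;mxl-2 and 466, 772 and 750.1 CPM in mxl-2 (log2 fold change -1.98 ± 0.38 SE, adjusted p = 0.000521).

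Cuticle collagens, the structural proteins of the worm's outer layer, were called lower in large numbers, with 1 mxl-2 library going against the other two. Of 144 col genes, 76 were called lower and 8 higher in eat-2;mxl-2 (median -2.38), where 17.2% and 18.7% of all genes were. Only 11 of the 76 were free of overlap, whereas 4566 of all 6230 called genes were. The summed level of the 144 was 11270, 9608 and 12930 CPM in the double mutant, against 48250, 12470 and 47120 CPM in mxl-2. In mxl-2 replicate 2 the sum was thus within the range of the double mutant, while replicates 1 and 3 were far above it. Of 21 collagens of body shape and furrows (dpy, sqt, rol and bli genes and their like), 14 were called lower and 2 higher. Only 1 of the 14 did not overlap, again a smaller part than among all called genes. The bli-1 gene, for a collagen of the cuticle struts, had 0.031, 0.227 and 0.42 CPM in the double mutant and 140.1, 0.283 and 192 CPM in mxl-2 (log2 fold change -8.90 ± 1.63 SE, adjusted p = 0.000323, edgeR). For col-38 the levels were 2.48, 5.22 and 4.74 CPM in eat-2;mxl-2 and 630.3, 2.83 and 771 CPM in mxl-2 (log2 fold change -6.82 ± 1.33 SE, adjusted p = 0.000569). In both genes mxl-2 replicate 2 was within the range of the double mutant libraries. Without that library the log2 fold changes were -9.49 and -7.40, and the list counts were 88 lower and 10 higher for col genes, and 14 lower and 2 higher for body-shape collagens. Over the 6 libraries alone, 20 col genes and 3 body-shape collagens were called lower, and with limma on TPM 32 and 12. The col genes called lower numbered 36 or 44 without eat-2;mxl-2 replicate 1 or 3, and without mxl-2 replicate 3, 49. The sperm RNA sums given above move with these genes across the mxl-2 libraries. With a covariate for sperm RNA, 41 col genes were called lower and 15 higher, with a median of -0.87, and 13 body-shape collagens were lower and 4 higher, with a median of -2.51 against -5.97 in the fit without it.

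A few cuticle genes fell without overlap. The body-shape collagen gene dpy-8 had 0.186, 0.34 and 0.27 CPM in the double mutant and 33.7, 0.486 and 47.8 CPM in mxl-2 (log2 fold change -6.67 ± 1.18 SE, adjusted p = 0.000243, edgeR). For col-155 the levels were 9.98, 9.41 and 12 CPM in eat-2;mxl-2 and 136, 28.4 and 146 CPM in mxl-2 (log2 fold change -3.29 ± 0.61 SE, adjusted p = 0.000351), and its relative col-92 averaged 1.84 ± 0.311 CPM in the double mutant and 173 ± 148 CPM in mxl-2 (SD, n = 3 each; log2 fold change -6.55). In each of these genes mxl-2 replicate 2 was the lowest of its group and above all 3 double mutant libraries. For dpy-8 it was only just above, at 0.486 CPM against 0.34 CPM, levels that rest on few counts. The cuticlin gene cut-4 and the secreted metalloprotease gene adt-3 were also among the 10 largest falls, with log2 fold changes of -4.63 and -4.92. In these, mxl-2 replicate 2 stood at 1.70 and 0.81 CPM, just above the highest double mutant libraries at 1.11 and 0.57 CPM. Of the abu and pqn genes, many of which encode proteins of the pharyngeal cuticle, 25 of 65 were called lower and 8 higher. Over all genes 17.2% were called lower and 18.7% higher. Without eat-2;mxl-2 replicate 1 or 3 or mxl-2 replicate 3 there were 12, 15 or 13 called lower. With the sperm covariate 17 were lower and 14 higher. The abu-7 gene had 4 counts in all over the eat-2;mxl-2 libraries and 6.07, 0.081 and 9.12 CPM in mxl-2, an mxl-2 over eat-2;mxl-2 ratio of 118 (95% interval 45.5 to 434). The moulting protease gene nas-37 had 11.8, 10.2 and 11.5 CPM in the double mutant and 39.6, 102 and 42.9 CPM in mxl-2 (log2 fold change -2.46 ± 0.46 SE, adjusted p = 0.000409), and here mxl-2 replicate 2 was the highest.

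Other large falls held against all 3 mxl-2 libraries. The dod-21 gene, named as downstream of DAF-16, had 1 count in all over the eat-2;mxl-2 libraries and 9.06, 16.4 and 8.44 CPM in mxl-2, an mxl-2 over eat-2;mxl-2 ratio of 1039 (95% interval 186 to 41079). Its list of 10 dod genes had 2 called higher and 4 lower. Among them dod-24 had 53.5, 21.8 and 53.6 CPM in eat-2;mxl-2, against 359.9, 487 and 306 CPM in mxl-2 (log2 fold change -3.16 ± 0.76 SE, adjusted p = 0.00308, edgeR), and dod-17 had 2.76, 1.89 and 2.85 CPM in the double mutant, against 32.5, 10.0 and 32.1 CPM in mxl-2 (log2 fold change -3.31 ± 0.70 SE, adjusted p = 0.00114). The dct-17 gene, named in a screen for targets of DAF-16 and germline tumours, had 4.21, 2.23 and 3.90 CPM in eat-2;mxl-2 and 78.3, 38.99 and 77.9 CPM in mxl-2 (log2 fold change -4.23 ± 1.07 SE, adjusted p = 0.00461). The transporter gene pgp-8 and the poly(ADP-ribose) glycohydrolase gene parg-2 had 3 low double mutant libraries and 1 very high mxl-2 library, replicate 2. Levels of pgp-8 were 1.05, 0.416 and 1.59 CPM in the double mutant and 11.1, 47.9 and 9.32 CPM in mxl-2 (log2 fold change -4.47 ± 1.61 SE, adjusted p = 0.0341). Those of parg-2 were 0.744, 0.378 and 0.9 CPM in the double mutant and 5.48, 30.6 and 4.54 CPM in mxl-2 (log2 fold change -4.31 ± 1.39 SE, adjusted p = 0.0204). Without mxl-2 replicate 2 their adjusted p values were 0.0945 and 0.0855, and without eat-2;mxl-2 replicate 1, 2 or 3 they were 0.103, 0.0936 and 0.0758 for pgp-8 and 0.0698, 0.0612 and 0.0572 for parg-2. The call of pgp-8 was also lost with the length offset (adjusted p = 0.0752).

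**Figure D4:**
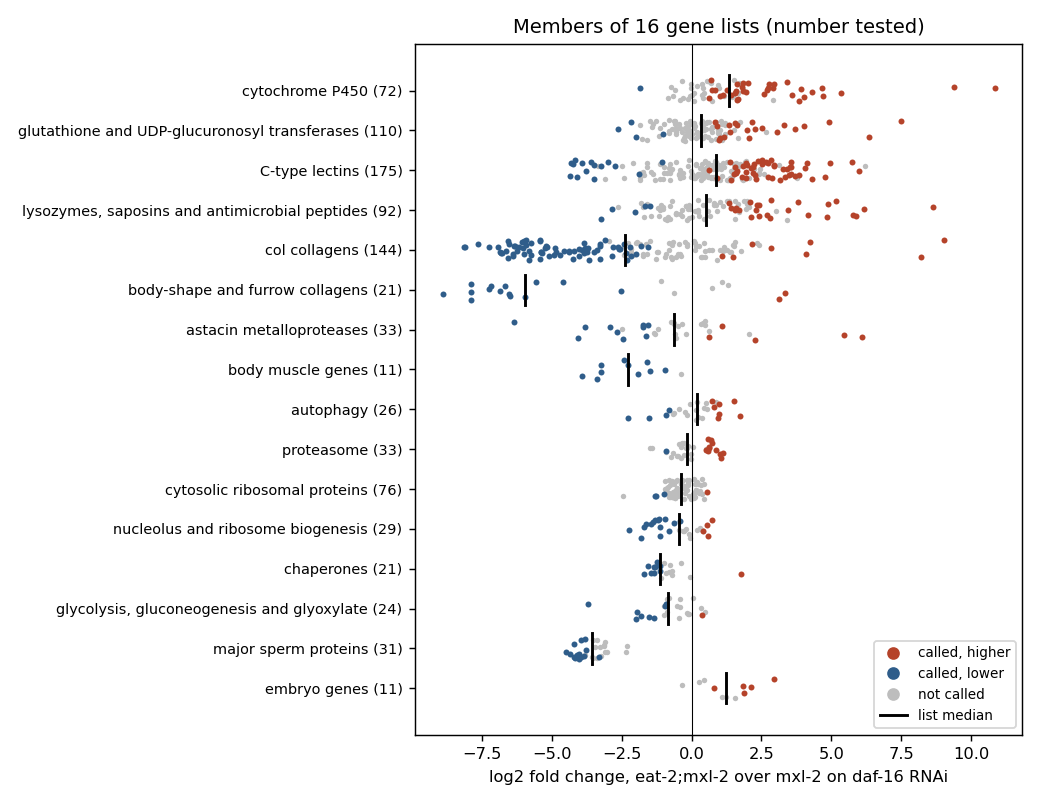
Log2 fold change (eat-2;mxl-2 over mxl-2 on daf-16 RNAi) of the members of 16 gene lists; red and blue points passed an adjusted p of 0.05, grey points did not, and black bars are list medians. Body muscle genes lie almost wholly to the left (median -2.27) and cytochrome P450 genes mostly to the right (median 1.33).

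Genes for lysosomal proteases and lipases included some of the most abundant rises. The cathepsin B gene cpr-1, for a gut protease, had 2436, 2393 and 3113 CPM in eat-2;mxl-2, against 359.7, 803 and 524 CPM in mxl-2 (log2 fold change 2.23 ± 0.68 SE, adjusted p = 0.0145, edgeR). Its relative cpr-4 had 1253, 1838 and 1742 CPM in the double mutant, against 133, 513 and 242 CPM in mxl-2 (log2 fold change 2.44 ± 0.59 SE, adjusted p = 0.00321). Neither overlapped between groups, and in both mxl-2 replicate 2 was the highest of its group. Without mxl-2 replicate 1 or 3 the adjusted p of cpr-1 was 0.0669 or 0.0561. Over the 25 cathepsin and aspartyl protease genes, 3 were called higher and 1 lower, where 18.7% and 17.2% of all genes were. The lysosomal lipase gene lipl-1 had 133, 159 and 112 CPM in eat-2;mxl-2 and 1.58, 17.5 and 1.77 CPM in mxl-2 (log2 fold change 4.27 ± 0.81 SE, adjusted p = 0.000433), with mxl-2 replicate 2 about 10 times above its replicates and a log2 fold change of 6.33 without that library. Of 26 autophagy genes, 7 were called higher and 4 lower, where 18.7% and 17.2% of all genes were. Without mxl-2 replicate 2 the counts were 16 and 3, where 23.6% and 20.1% of all genes were called. Only 4 were called higher without eat-2;mxl-2 replicate 1 or mxl-2 replicate 1 or 3. The protease gene atg-4.2, which processes the ubiquitin-like autophagy proteins, had 38.1, 21.7 and 36.9 CPM in the double mutant and 8.28, 12.1 and 8.80 CPM in mxl-2 (log2 fold change 1.73 ± 0.23 SE, adjusted p = 1.43e-05). The tethering factor gene epg-5 had 4.90, 2.80 and 7.47 CPM in the double mutant and 22.9, 23.3 and 27.3 CPM in mxl-2 (log2 fold change -2.27 ± 0.46 SE, adjusted p = 0.000728). The lipid transfer gene atg-2 was called lower at -1.53, a call lost with the length offset (adjusted p = 0.799).

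Fat metabolism changed gene by gene. Of 63 fatty acid oxidation genes, 14 were called lower and 5 higher (median -0.33), where 17.2% and 18.7% of all genes were. Leaving out eat-2;mxl-2 replicate 1 or 3 left 6 each called lower, and without mxl-2 replicate 1 or 3, 8 or 6. Members of the ech family, enoyl-CoA hydratases, went opposite ways. The ech-1.1 gene had 1.83, 2.68 and 1.44 CPM in eat-2;mxl-2 and 18.96, 9.19 and 17.2 CPM in mxl-2 (log2 fold change -2.93 ± 0.36 SE, adjusted p = 7.12e-06, edgeR), whereas ech-9 had 33.04, 25.8 and 25.5 CPM in the double mutant and 3.39, 6.6003 and 2.05 CPM in mxl-2 (log2 fold change 2.81 ± 0.57 SE, adjusted p = 0.000875). Acyl-CoA dehydrogenase acdh-3 averaged 317 ± 89.6 CPM in eat-2;mxl-2 and 164.9 ± 3.12 CPM in mxl-2 (SD, n = 3 each; log2 fold change 0.94). The yolk protein genes did not pass the edgeR test, with vit-3 having the smallest adjusted p, 0.125. Levels of vit-2 were 21051, 13147 and 23588 CPM in the double mutant and 11327, 48145 and 12648 CPM in mxl-2, with mxl-2 replicate 2 far above the rest. The log2 fold change of vit-2 was -0.32 (adjusted p = 0.706) and became 0.69 (adjusted p = 0.395) without that library. For vit-6 the values were -0.69 (adjusted p = 0.414) with it and 0.07 (adjusted p = 0.943) without it.

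Within the Myc family network, mxl-1 rose and 3 members fell. The network list held 7 genes. The mxl-1 gene (chromosome V, 11244839 to 11245926, plus strand, WBcel235), the Max-like partner of MDL-1, had 92.5, 85.7 and 99.1 CPM in the double mutant and 32.6, 38.6 and 26.7 CPM in mxl-2 (log2 fold change 1.502 ± 0.15 SE, adjusted p = 3.8e-07, edgeR). The mml-1 gene, for the partner of MXL-2, had 16.3, 23.3 and 19.1 CPM in eat-2;mxl-2 and 38.1, 42.6 and 41.9 CPM in mxl-2 (log2 fold change -1.06 ± 0.27 SE, adjusted p = 0.0051). The groups were apart by more than the spread between replicates in both. The TFEB gene hlh-30, a regulator of lysosome and autophagy genes, averaged 36.3 ± 7.43 CPM in the double mutant and 69.7 ± 8.16 CPM in mxl-2 (log2 fold change -0.94), and the SREBP gene sbp-1 averaged 20.7 ± 2.58 CPM in the double mutant and 48.0 ± 4.201 CPM in mxl-2 (log2 fold change -1.22; SD, n = 3 each). With the length offset, mxl-1 was still called higher (1.03, adjusted p = 0.00792), and none of the 3 falls passed (adjusted p = 0.287 for mml-1, 0.418 for hlh-30 and 0.12 for sbp-1). Leaving out eat-2;mxl-2 replicate 1 gave sbp-1 an adjusted p of 0.0531.

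Insulin and TOR signalling genes moved in both directions. In the insulin pathway, 5 of 13 genes were called lower and 1 higher, where 17.2% and 18.7% of all genes were. With the length offset these counts were 2 and 3. The same shares over all genes apply to the AMPK, TOR and DAF-16 target counts on daf-16 RNAi below. The insulin receptor gene daf-2 had 28.9, 27.2 and 42.8 CPM in eat-2;mxl-2 and 94.6, 109.9 and 107 CPM in mxl-2 (log2 fold change -1.66 ± 0.37 SE, adjusted p = 0.00199, edgeR), a call lost with the length offset (adjusted p = 0.398). The phosphatase subunit gene pptr-1, which acts on AKT-1, had 26.5, 39.4 and 36.3 CPM in the double mutant and 90.5, 98.6 and 93.6 CPM in mxl-2 (log2 fold change -1.47 ± 0.26 SE, adjusted p = 0.000243). It was called with the length offset as well (adjusted p = 0.000115). Of 19 AMPK and TOR genes, 3 were called higher and 6 lower, and without eat-2;mxl-2 replicate 1, 3 and 3. The length offset gave 4 calls in each direction. The higher ones included the Rag GTPase genes raga-1 and ragc-1, which pass on amino acid supply to TOR. Levels of raga-1 were 205, 133 and 191 CPM in the double mutant and 93.2, 90.2 and 87.9 CPM in mxl-2 (log2 fold change 0.96 ± 0.15 SE, adjusted p = 6.78e-05). For ragc-1 they were 337, 208 and 336 CPM in eat-2;mxl-2 and 144, 159 and 135 CPM in mxl-2 (log2 fold change 1.01 ± 0.18 SE, adjusted p = 0.000291). The S6 kinase gene rsks-1, downstream of TOR, fell to 56.7, 71.6 and 81.5 CPM in the double mutant, against 180.5, 225 and 194 CPM in mxl-2 (log2 fold change -1.51 ± 0.27 SE, adjusted p = 0.000263). Among 12 established DAF-16 targets, 3 were called higher and 2 lower on daf-16 RNAi, and without eat-2;mxl-2 replicate 1 or mxl-2 replicate 1 or 3, 1 was called higher. On EV, where 4.25% of all genes were called lower, 5 of the 12 were lower. The linker histone gene hil-1 had 14.1, 14.9 and 14.01 CPM in eat-2;mxl-2 and 3.23, 6.28 and 4.22 CPM in mxl-2 (log2 fold change 1.65 ± 0.46 SE, adjusted p = 0.00847).

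Among protein synthesis and quality control lists, nucleolar and chaperone genes were called lower most often. Of 29 nucleolar and ribosome biogenesis genes, 15 were called lower and 4 higher, where 17.2% and 18.7% of all genes were. Without mxl-2 replicate 2 the counts were 13 and 2. The number called lower was 6 or 7 without eat-2;mxl-2 replicate 1 or 3, and without mxl-2 replicate 1 or 3, 7 each. The RNA polymerase I subunit gene rpoa-1 had 32.4, 44.4 and 44.3 CPM in the double mutant and 130.1, 101 and 140.2 CPM in mxl-2 (log2 fold change -1.61 ± 0.33 SE, adjusted p = 0.000832, edgeR; adjusted p = 0.126 with the length offset). The translation factor gene larp-1 had 98.8, 118 and 177 CPM in the double mutant and 610.3, 565 and 667 CPM in mxl-2 (log2 fold change -2.23 ± 0.49 SE, adjusted p = 0.00155). Of 21 chaperone genes, 10 were called lower and 1 higher, among them the chaperonin gene cct-3 with 93.7, 135 and 151 CPM in eat-2;mxl-2 and 372, 369 and 376 CPM in mxl-2 (log2 fold change -1.56 ± 0.36 SE, adjusted p = 0.00216). Without eat-2;mxl-2 replicate 1, 2 or 3 the number called lower was 1, 14 or 5, and without mxl-2 replicate 1 or 3 it was 6 or 3. Cytosolic ribosomal protein genes gave 3 calls lower and 1 higher of 76, both below the shares over all genes. Their summed level was 83080, 142700 and 93360 CPM in the double mutant and 149400, 128400 and 139800 CPM in mxl-2, with replicate 2 of the double mutant in the range of the mxl-2 libraries. Without that library 26 were called lower and 0 higher, and without mxl-2 replicate 1 or 3 or eat-2;mxl-2 replicate 1 or 3 no call was left in either direction at the adjusted threshold. With the length offset 25 were called lower. The rpl-3 gene, the most abundant called gene of this list, had 949, 3341 and 2040.5 CPM in eat-2;mxl-2 and 5534, 4238 and 5352 CPM in mxl-2 (log2 fold change -1.26 ± 0.49 SE, adjusted p = 0.0466), and without any 1 of eat-2;mxl-2 replicates 1 and 3 and mxl-2 replicates 1 and 3 it did not pass (adjusted p = 0.204, 0.113, 0.107 and 0.106).

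Proteasome genes rose in part, by small amounts. Of 33 subunit genes, 11 were called higher and 1 lower (11 and 0 without mxl-2 replicate 2), although the list's median was -0.17. All 12 were without overlap, as were 4566 of all 6230 called genes. The core subunit gene pas-5 had 639.6, 453 and 663 CPM in the double mutant and 282, 259 and 261 CPM in mxl-2 (log2 fold change 1.13 ± 0.18 SE, adjusted p = 0.000106, edgeR). For pbs-4, a further core subunit gene, the levels were 411, 298 and 416 CPM in the double mutant and 192, 171 and 173 CPM in mxl-2 (log2 fold change 1.07 ± 0.16 SE, adjusted p = 6.48e-05). In the length-offset fit 2 of the 33 were called higher and 2 lower. Nuclear genes of the respiratory chain gave 9 calls lower and 5 higher of 39, where 17.2% and 18.7% of all genes were called. With the length offset the counts were 16 and 0. Without eat-2;mxl-2 replicate 1, 2 or 3 the number called lower was 3, 16 or 5, and without mxl-2 replicate 1 or 3 it was 5 each. The 12 mitochondrially encoded genes, which can mark RNA quality, summed to 3739, 2717 and 3562 CPM in the double mutant and 1851, 1379 and 2094 CPM in mxl-2, without overlap. Of these, 1 was called higher and 0 lower (median 1.096), and their part in the other results was not tested. The ATP synthase subunit gene atp-1 had 625, 1164 and 951 CPM in eat-2;mxl-2 and 2558, 2079 and 2637 CPM in mxl-2 (log2 fold change -1.41 ± 0.42 SE, adjusted p = 0.013), and without eat-2;mxl-2 replicate 1 its adjusted p was 0.0738.

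Smaller stress, peptide and histone lists added single genes. Of 11 small heat shock protein genes 1 was called higher and 1 lower, the higher one being hsp-16.2 with 50.6, 37.3 and 51.3 CPM in the double mutant and 13.99, 7.13 and 14.4 CPM in mxl-2 (log2 fold change 1.97 ± 0.52 SE, adjusted p = 0.00646, edgeR). Insulin-like peptide genes gave 5 calls higher and 2 lower of 34, where 18.7% and 17.2% of all genes were called. Among them was ins-37, at 0.713, 0.945 and 0.57 CPM in eat-2;mxl-2 and 7.80, 4.17 and 9.04 CPM in mxl-2 (log2 fold change -3.23 ± 0.62 SE, adjusted p = 0.000503). Histone genes gave 9 calls higher of 39, where 18.7% of all genes were called higher. Without mxl-2 replicate 2, 10 were higher and 2 lower, and without mxl-2 replicate 3 or eat-2;mxl-2 replicate 2, 5 were higher. The length offset gave 5 higher and 2 lower. One of the 9 was his-67, with 12.1, 15.3 and 8.9998 CPM in the double mutant and 2.21, 1.78 and 1.69 CPM in mxl-2 (log2 fold change 2.68 ± 0.35 SE, adjusted p = 1.12e-05). Histone genes are near-identical copies that are mostly not polyadenylated, so single members are uncertain. Of 8 metallothionein, ferritin and iron transport genes, 3 were called higher, and of 11 superoxide dismutase, catalase and peroxiredoxin genes, 3 higher and 1 lower. Over all genes 18.7% were called higher and 17.2% lower, and neither list clearly exceeded these shares. The 11 genes had 1 call in each direction with the length offset. Without mxl-2 replicate 1 this list had 1 called higher, as had the metal-binding list without mxl-2 replicate 1 or 3 or eat-2;mxl-2 replicate 1. The metal-binding list had 5 called higher without mxl-2 replicate 2.

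Sperm and yolk genes differed most between the mxl-2 libraries themselves. Of the 31 major sperm protein genes, 15 were called lower and 0 higher (median -3.57), none without overlap, and of 34 other sperm genes 18 were called lower and 0 higher. Without mxl-2 replicate 2, 30 and 31 were lower. Leaving out any other 1 of the 6 libraries gave 4 to 10 called lower among the other sperm genes, and the sperm covariate 7 lower and 4 higher. Without eat-2;mxl-2 replicate 2, 2 major sperm protein genes were called lower, and in limma on the deposited TPM none was. Leaving out mxl-2 replicate 1 or 3 gave 1 each, and leaving out eat-2;mxl-2 replicate 1 or 3 gave 0. The sperm covariate gave 6 higher and 1 lower. It was itself made from the levels of these genes, so its counts cannot test whether they differed between the strains. These genes are near-identical copies, and the counts of single members are uncertain. The sperm gene spe-15 had 6.38, 7.30 and 7.68 CPM in the double mutant and 83.4, 12.03 and 103.6 CPM in mxl-2 (log2 fold change -3.22 ± 0.62 SE, adjusted p = 0.000509, edgeR). Of 30 oocyte and germline genes, 5 were called lower and 3 higher, where 17.2% and 18.7% of all genes were, and without eat-2;mxl-2 replicate 2, 14 and 3. Without eat-2;mxl-2 replicate 3 or mxl-2 replicate 1 or 3, 2 were called lower, and without eat-2;mxl-2 replicate 1, 0. Their summed level was 5287, 13840 and 7074 CPM in eat-2;mxl-2 and 17930, 16990 and 16370 CPM in mxl-2. The germ granule gene pgl-1 had 124, 331 and 193 CPM in the double mutant and 677, 525 and 669 CPM in mxl-2 (log2 fold change -1.53 ± 0.43 SE, adjusted p = 0.00981), with an adjusted p of 0.0652 without eat-2;mxl-2 replicate 1. The meiotic chromosome axis gene him-3 rose to 214, 141 and 207 CPM in eat-2;mxl-2, against 102, 98.0 and 104.1 CPM in mxl-2 (log2 fold change 0.89 ± 0.16 SE, adjusted p = 0.000276). The gonadal sheath innexin genes inx-8 and inx-9 averaged 120.4 ± 32.6 and 43.02 ± 8.05 CPM in the double mutant, against 48.6 ± 3.70 and 12.95 ± 0.544 CPM in mxl-2 (SD, n = 3 each), with log2 fold changes of 1.31 and 1.73. Of the 7 gonadal sheath genes, 2 were called higher and 3 lower (median -0.56). Their summed level was lower in the double mutant, at 423 to 638 CPM against 1194 to 2713 CPM in mxl-2. The list held the collagen IV gene let-2, its largest fall (log2 fold change -2.61). The let-2 levels given above make up most of the mxl-2 sums. The sum therefore does not show that RNA of the sheath fell, and the sheath genes inx-8 and inx-9 rose. Of 11 embryo genes, 5 were called higher and 0 lower, and 8 without mxl-2 replicate 2. Only 3 were called higher without eat-2;mxl-2 replicate 1 or 3 or mxl-2 replicate 1 or 3. Among these, pes-10 had 10.0, 3.93 and 9.99 CPM in the double mutant and 0.709, 1.58 and 0.844 CPM in mxl-2 (log2 fold change 2.93 ± 0.50 SE, adjusted p = 0.00016). The embryo genes summed to 74.91, 52.56 and 74.31 CPM in eat-2;mxl-2 and 23.92, 72.68 and 22.98 CPM in mxl-2, with mxl-2 replicate 2 at the level of the double mutant.

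Among the genes named here, the smallest adjusted p in the comparison was that of fis-2, which encodes a fission protein of mitochondria and peroxisomes. It had 175, 140.3 and 173 CPM in the double mutant and 12.61, 22.2 and 12.4 CPM in mxl-2 (log2 fold change 3.37 ± 0.24 SE, adjusted p = 3.67e-09, edgeR). A pair of genes for nuclear hormone receptors, a large family of ligand-dependent transcription factors in worms, also rose. The nhr-47 gene had 67.8, 42.8 and 65.6 CPM in eat-2;mxl-2 and 11.6, 12.2 and 10.4 CPM in mxl-2 (log2 fold change 2.36 ± 0.23 SE, adjusted p = 3.19e-07), and nhr-15 had 13.8, 16.3 and 11.5 CPM in the double mutant and 1.85, 2.59 and 1.65 CPM in mxl-2 (log2 fold change 2.77 ± 0.28 SE, adjusted p = 6.22e-07). In all 3 genes the lowest double mutant library was well above the highest mxl-2 library. Of all 224 nuclear hormone receptor genes, 18 were called higher and 17 lower, where 18.7% and 17.2% of all genes were. The length offset changed these counts to 12 and 19. Without mxl-2 replicate 2 the counts were 35 and 13, and without eat-2;mxl-2 replicate 1 or 3 or mxl-2 replicate 1 or 3 between 7 and 9 were called higher.

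Over the 6 libraries alone, with fewer genes called in all, the counts of several lists were smaller. Higher and lower calls then numbered 12 and 8 for conjugating enzymes, 16 and 4 for lysozymes and their like, 25 and 10 for C-type lectins, and 8 and 2 for neuropeptides. They were 5 and 10 for abu and pqn genes, 1 and 9 for fatty acid oxidation, 1 and 4 for autophagy, 2 and 2 for the proteasome, 1 and 6 for the nuclear respiratory chain, and 4 and 9 for nuclear hormone receptors. Of major sperm protein genes 0 were called in that fit, of other sperm genes 4 lower, and of histone and embryo genes 4 and 2 higher. The acdh-3, clec-150, him-3 and rpl-3 genes lost their calls there.

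In the fit over 33 libraries the same strain difference gave fewer calls on the other feedings, an order that turned for EV in other fits. On EV, 1364 genes (7.86%) were called between eat-2;mxl-2 and mxl-2, and on pha-4 RNAi 713 (4.11%, with 1.58% higher and 2.52% lower). Over the compared groups alone there were 3613 calls on EV and 2766 on daf-16 RNAi, and with the replicate block 1452 on EV and 0 on daf-16 RNAi. These comparisons share no library with the one on daf-16 RNAi. Genes called in the same direction on daf-16 RNAi and on EV numbered 625, which is 10.0% of the calls on daf-16 RNAi and 45.8% of those on EV, and 72 were called in opposite directions. For pha-4 RNAi the same-direction number was 324, or 5.20% and 45.4%. Leaving out 1 library gave 678 to 1086 calls on EV, with the lowest count without eat-2;mxl-2 replicate 2, and 252 to 688 on pha-4 RNAi, with the lowest count without eat-2;mxl-2 replicate 3. Across the 17354 genes, the log2 fold change on daf-16 RNAi correlated with that on EV at r = 0.18 and with that on pha-4 RNAi at r = 0.34 (Pearson, a description across genes, which are not independent and share depth and length effects).

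The difference between the strain effects was then tested directly. The effect on daf-16 RNAi minus that on EV was called for 1210 genes (6.97%), 632 more positive (3.64%) and 578 more negative (3.33%) on daf-16 RNAi. The more positive ones were thus 52.2% of the calls. With RLE size factors in place of TMM, they were 39.3%, with limma on TPM 21.3%, with the length offset 38.5% and without eat-2;mxl-2 replicate 1 on EV 34.5%. Without mxl-2 replicate 2 on daf-16 RNAi 4546 were called, and without mxl-2 replicate 3 on daf-16 RNAi 351. Of the 144 col genes, 43 were among the 1210, as were 14 of the 21 body-shape collagens. On EV 9 of the 144 col genes were called higher, where 3.61% of all genes were, and for bli-1 the log2 fold change was 2.36 on EV (adjusted p = 0.244) and -8.90 on daf-16 RNAi (adjusted p of the difference 0.00223, edgeR). Body muscle genes were called lower on both feedings, 10 of 11 on daf-16 RNAi and 6 of 11 on EV, where 4.25% of all genes were lower. The log2 fold change of unc-54 was -3.23 on daf-16 RNAi and -2.07 on EV (adjusted p = 0.00423), with an adjusted p of the difference of 0.219. A p that misses the threshold does not show that the effects are equal.

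**Figure D5:**
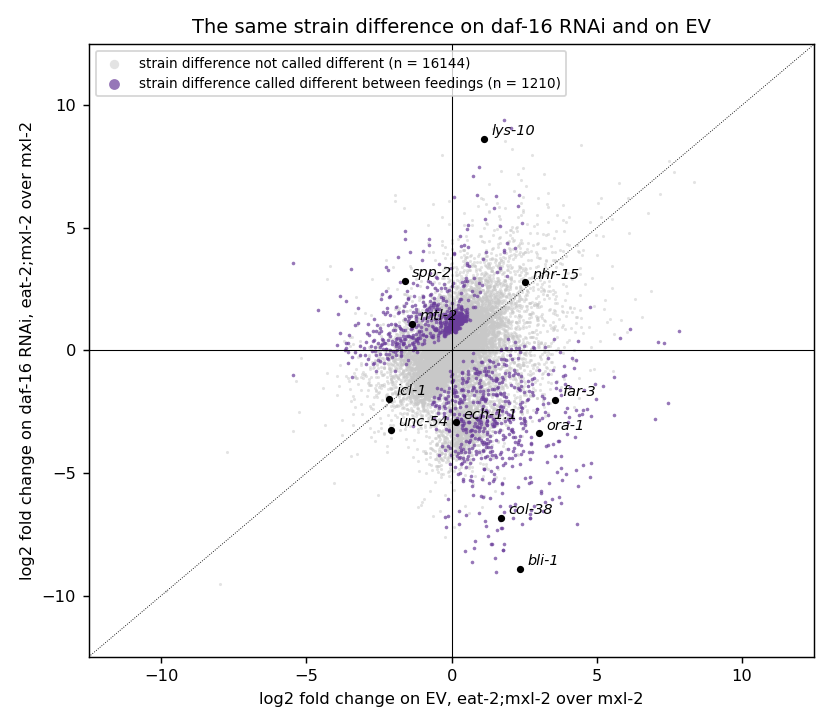
Log2 fold change of eat-2;mxl-2 over mxl-2 on daf-16 RNAi (vertical) against the same strain difference on EV (horizontal), 1 point per gene; the dotted line marks equal values. Purple points are the 1210 genes whose strain difference was called different between feedings; bli-1 and col-38 lie at the bottom and lys-10 at the top.

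Several genes changed in opposite directions on daf-16 RNAi and on EV. The far-3 gene, for a fatty acid and retinol binding protein, was lower in eat-2;mxl-2 on daf-16 RNAi (6.88, 7.18 and 7.89 CPM in the double mutant, 36.5, 15.7 and 36.8 CPM in mxl-2, log2 fold change -2.02) and higher on EV (3.55, adjusted p = 1e-06). Its effects differed by -5.56 ± 0.48 SE (edgeR adjusted p = 3.25e-07). The ora-1 gene did likewise, at -3.38 on daf-16 RNAi and 3.02 on EV (adjusted p = 0.000259 on EV, adjusted p of the difference 9.28e-06). The lectin gene clec-150 went the other way, at 0.92 on daf-16 RNAi and -2.46 on EV (adjusted p = 3.86e-06 on EV, adjusted p of the difference 1.45e-05). With the length offset clec-150 itself was not called on daf-16 RNAi (adjusted p = 0.0971). The metallothionein gene mtl-2, a metal-binding protein and known DAF-16 target, averaged 220.1 ± 13.2 CPM in eat-2;mxl-2 and 104.4 ± 10.4 CPM in mxl-2 on daf-16 RNAi (SD, n = 3 each; log2 fold change 1.08). On EV its log2 fold change was -1.36 (adjusted p = 0.00446), and the difference had an adjusted p of 0.00152. The spp-2 gene stood at 2.84 on daf-16 RNAi and -1.60 on EV (adjusted p = 0.0282 on EV, adjusted p of the difference 0.000444). By contrast nhr-15 was higher on both, at 2.77 on daf-16 RNAi and 2.53 on EV (adjusted p = 5.06e-06 on EV), with an adjusted p of the difference of 0.743.

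Against pha-4 RNAi the strain effect was called different for 1296 genes (7.47%), 911 more positive (5.25%) and 385 more negative (2.22%) on daf-16 RNAi. The more positive ones were 70.3% of the calls, 55.7% with RLE size factors, 29.7% with limma on TPM, 42.2% over the compared groups alone and 47.6% without mxl-2 replicate 3 on pha-4 RNAi. The length offset left 205 genes called. The count was 246 without mxl-2 replicate 2 on pha-4 RNAi and 3755 without mxl-2 replicate 2 on daf-16 RNAi. On pha-4 RNAi the mean log2 CPM of major sperm protein genes was -0.75, -1.17 and 4.44 in mxl-2. In eat-2;mxl-2 it was 1.69, 2.31 and 2.53. The lys-7 gene was raised on daf-16 RNAi (4.17) and stood at -1.43 on pha-4 RNAi (adjusted p = 0.0651), a difference of 5.603 ± 0.65 SE (edgeR adjusted p = 0.000122). For mxl-1 the values were 1.502 on daf-16 RNAi, -0.03 on pha-4 RNAi and 0.24 on EV, with adjusted p values of the differences of 0.000617 for pha-4 RNAi and 0.00123 for EV. With the length offset neither difference passed (adjusted p = 0.196 for pha-4 RNAi and 0.0929 for EV). The ech-1.1 gene had log2 fold changes of -2.93 on daf-16 RNAi, -0.06 on pha-4 RNAi (adjusted p = 0.962) and 0.16 on EV (adjusted p = 0.813). Its effect differed from both (adjusted p = 0.00229 for pha-4 RNAi and 0.000909 for EV).

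The eat-2 effect was also compared between animals without and with mxl-2, all on daf-16 RNAi. Between eat-2 (2 libraries) and N2 (3 libraries), 126 genes (0.726%) were called, 0.305% higher and 0.421% lower. The 2 eat-2 libraries were unlike each other, with TMM factors of 1.56 and 0.854. Their mean log2 CPM of major sperm protein genes was -0.66 and -2.97. The low number of calls therefore does not show that the eat-2 effect was small with mxl-2 present. The difference between these eat-2 effects was called for 767 genes (4.42%), 511 of them more positive without mxl-2 (2.94%) and 256 more negative (1.48%). The more positive ones were 66.6% of the calls, 50.6% with RLE size factors, 48.1% with no filter, 37.2% with the length offset, 40.3% over the compared groups alone and 43.7% without eat-2 replicate 1. This count ranged from 256 without N2 replicate 3 to 2631 without eat-2 replicate 1, and it was 1778 without mxl-2 replicate 2. For fis-2 the log2 fold change was 3.37 without mxl-2 and 0.25 with it, a difference of 3.12 ± 0.35 SE (edgeR adjusted p = 1.46e-05). The lys-10 gene gave 8.62 without mxl-2 and -0.47 with it (adjusted p = 0.806 with mxl-2, adjusted p of the difference 9.27e-05), and mxl-1 gave 1.502 and -0.12 (adjusted p of the difference 0.000193). The nuclear receptor genes nhr-47 and nhr-15 were at -0.01 and -0.06 in eat-2 against N2, with adjusted p values of the differences of 0.000275 and 0.000411. Over the compared groups alone the differences of mxl-1, nhr-47 and nhr-15 did not pass (adjusted p = 0.1, 0.0669 and 0.0842), and with the length offset that of mxl-1 did not (adjusted p = 0.197). For dct-17, dod-17 and dod-24 the fitted values had opposite signs without and with mxl-2, and those with mxl-2 did not pass the test by themselves. The dct-17 gene was at -4.23 without mxl-2 and 4.19 with it (adjusted p = 0.0804 with mxl-2, adjusted p of the difference 0.00366). Without eat-2 replicate 2 its difference was -4.197 and did not pass (adjusted p = 0.0963), so the opposite sign rests on 1 of the 2 eat-2 libraries. For dod-17 the values were -3.31 without mxl-2 and 2.76 with it (adjusted p of the difference 0.00126), and for dod-24 they were -3.16 and 2.13 (adjusted p of the difference 0.00779). Across genes both effects, which share no library, correlated at r = 0.52 (Pearson, 17354 genes).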

How the data were processed

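Whole-animal polyadenylated RNA was measured in 33 libraries of 12 groups (4 strains on 3 feedings). Read counts per gene and TPM (length-scaled transcript levels) are used as deposited by the authors. The submitters' processing notes name FastQC, Trimmomatic, STAR 2.4.2a, RSEM 1.2.23, featureCounts 1.4.6-p5 and build WBcel235, with no roles. The kit marks strand, and whether counting used it is not given in the sources used here. Of the genes named, acdh-3, col-74, cyp-13A6, cyp-34A5, cyp-35B1, dpy-8, far-3, ins-37 and pbs-4 share 5.59% to 20.1% of their exon length with other genes. Promoter sequences were not analysed here.

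Counts were tested in edgeR 4.0.16 (R 4.3.3) with filterByExpr, TMM, 1 mean per group over the 33 libraries, quasi-likelihood tests and Benjamini-Hochberg adjustment, called under 0.05. Fold changes are of fitted means, and correlations between libraries used log2 CPM with a prior count of 2. Intervals on ratios of total counts are exact binomial ones for counting error only. DESeq2 1.42.0, limma 3.58.1 on log2(TPM + 0.5), voom with quality weights, other scalings and filters, libraries left out, a replicate block, a sperm covariate and a length offset were alternatives. For the sperm covariate, each library was given its average level, on a log2 scale, over the major sperm protein list. The length offset and the fit without both libraries numbered 2 were chosen after seeing the data. Exon lengths and positions came from the WBcel235 annotation, which held all 17907 gene IDs. The members and gene lists were chosen with earlier results of these data known. Named genes are the targeted ones, the 10 largest rises and falls without overlap at a mean of 5 CPM or more, the 10 most abundant calls, at most 4 calls per list and 3 per direction of each difference of effects. Not all of them are printed, and nhr-15 on EV, unc-54 on EV and the vit genes were shown after their values were seen. The steps were tested on simulated counts whose spread was capped below the common dispersion of these data (0.20). The simulation held no outlying library and no trend with gene length.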

Additional observations from a re-analysis of the deposited data

Results flagged for a closer look

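The results here were picked because the strain effect on daf-16 RNAi, or the eat-2 effect without mxl-2, differed from the matching effect elsewhere in a test of the difference itself (edgeR quasi-likelihood, adjusted over all genes tested). The difference between daf-16 RNAi and EV was called for 1210 genes, that between daf-16 RNAi and pha-4 RNAi for 1296, and that between the eat-2 effects without and with mxl-2 on daf-16 RNAi for 767. The genes below were chosen from these calls, and no explanation was tested for any of them.

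Against EV, the strain effect on daf-16 RNAi was higher (log2 scale) by 7.51 for lys-10, 5.46 for ugt-18, 4.58 for ech-9, 4.45 for spp-2 and 3.38 for clec-150. It was also higher by 2.43 for mtl-2, 2.36 for ddo-3, 1.82 for inx-9 and 1.26 for mxl-1. The adjusted p values of these 9 ran from 1.45e-05 for clec-150 to 0.00241 for inx-9. For ddo-3 the levels on daf-16 RNAi were 391, 278 and 358 CPM in the double mutant and 101, 78.3 and 100.1 CPM in mxl-2. Differences below 0 were -11.27 for bli-1, -8.54 for col-38, -7.36 for col-176, -6.40 for ora-1, -5.56 for far-3 and -3.09 for ech-1.1. Of these, bli-1, col-38 and col-176 had mxl-2 replicate 2 within the range of the double mutant libraries on daf-16 RNAi, at 1.54 CPM for col-176 against 0.93, 1.44 and 1.86 CPM in the double mutant. Without that library the strain difference of col-176 was -3.93. The groups did not overlap for far-3 or ech-1.1. With the length offset the mxl-1 difference did not pass (adjusted p = 0.0929), and in limma that of inx-9 did not (adjusted p = 0.0515).

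Against pha-4 RNAi, the differences were 5.61 for lys-10, 5.603 for lys-7, 5.49 for cyp-35B1 and 1.53 for mxl-1. They were -5.91 for grl-27, -3.37 for aagr-4 and -2.87 for ech-1.1. The alpha-glucosidase family gene aagr-4 had 10.1, 21.3 and 11.3 CPM in the double mutant and 94.2, 28.02 and 115.2 CPM in mxl-2 on daf-16 RNAi, without overlap (log2 fold change -2.48 ± 0.43 SE, adjusted p = 0.000225). Hedgehog-related grl-27 had 0.465, 0.567 and 0.33 CPM in the double mutant and 4.97, 0.85 and 7.47 CPM in mxl-2. The cyp-35B1 gene rested on 6 counts over the mxl-2 libraries, for a ratio of eat-2;mxl-2 over mxl-2 of 17.2 (95% interval 7.70 to 47.9).

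Without against with mxl-2, the eat-2 effect was higher by 13.65 for cyp-13A8, 12.20 for gst-33 and 12.07 for cyp-13A12, with levels under 3 CPM in all 3 mxl-2 libraries on daf-16 RNAi. With voom none of these 3 differences passed (adjusted p = 0.539, 0.594 and 0.686). That of cyp-13A12 also did not pass without N2 replicate 2 (8.45, adjusted p = 0.0575) or without eat-2 replicate 2 (adjusted p = 0.0638). Further differences were 9.09 for lys-10, 5.13 for sdz-7, 4.15 for cpr-4, 3.12 for fis-2, 2.83 for nhr-15, 2.38 for nhr-47 and 1.62 for mxl-1. Differences below 0 were -8.42 for dct-17, -6.07 for dod-17, -5.29 for dod-24 and -3.09 for bath-24. Over the compared groups alone the differences of cyp-13A12, gst-33, cpr-4, nhr-15, nhr-47, mxl-1 and bath-24 were not called (adjusted p from 0.05003 to 0.1002). Without eat-2 replicate 2 those of dct-17 and cpr-4 were not called either (adjusted p = 0.0963 and 0.0578). The eat-2 arm with mxl-2 has 2 libraries with 20.2 and 23 M counts, where M is 10 to the power of 6.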

How the results depend on the processing

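The strain comparison on daf-16 RNAi gave 6258 calls with RLE size factors, 6095 with no filter, 7190 in DESeq2, 5288 in limma on TPM, 6626 with the sperm covariate (62.7% higher) and 5149 with the length offset. It moved to 13243 with voom and quality weights and to 2766 over the 6 libraries alone. The replicate numbers are shared between groups. Deviations of same-numbered libraries correlated at -0.036, -0.043 and -0.025, and those of differently numbered ones at -0.049 to 0.049. With 3 libraries a group, and replicate 2 apart in each, these values cannot show whether the numbers pair the samples. With the replicate block 0 genes were called (4708 at an unadjusted p under 0.05), and the counts for the differences of effects were 110 against EV, 90 against pha-4 RNAi and 3 for mxl-2. Leaving out 1 library gave 3350 to 7574 calls on daf-16 RNAi, 678 to 1086 on EV, 252 to 688 on pha-4 RNAi, and 351 to 4546, 246 to 3755 and 256 to 2631 for the differences against EV, against pha-4 RNAi and for mxl-2. DESeq2 gave 2061 on EV, 1357 on pha-4 RNAi, and 2251, 2319 and 1348 for the differences in the same order. Voom gave 8250, 2941, 10857, 11015 and 307, and the sperm covariate 2455 on EV, 1451 on pha-4 RNAi, 2001 against pha-4 RNAi and 2600 for mxl-2. Over the compared groups alone there were 3613 calls on EV, 633 against EV and 72 for mxl-2. Limma on TPM gave 694 against pha-4 RNAi and 422 for mxl-2, and the length offset 205 against pha-4 RNAi. Of 116 genes named, 111 were called, all 111 kept their direction in every setting run for them other than the block (109 were tested over the compared groups alone), 82 were called in all of those settings, and 101 in every fit without 1 library. Directions that turned belong to genes that were not called. For mxl-2, main value 0.24, they were -0.0053 with voom, -0.10 with the block, -0.27 with the length offset and -0.031 without both libraries numbered 2. For vit-2, main value -0.32, they were 0.88 with voom, 0.86 with the length offset and 0.90 without both libraries numbered 2, and for vit-6, main value -0.69, 0.27, 0.52 and 0.28. Leaving out 1 library gave -0.36 to 0.57 for mxl-2, -0.66 to 0.69 for vit-2 and -0.98 to 0.0706 for vit-6. The causes of these moves were not tested. The promoter window alternative was not run. Levels under 1 CPM rest on fewer than about 30 counts a library, which limits what can be said of their differences.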

Other observations

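Moulting and lectin genes not described above showed both patterns of the mxl-2 libraries. Of 33 astacin metalloprotease genes, 10 were called lower and 5 higher, where 17.2% and 18.7% of all genes were. Without mxl-2 replicate 2 the counts were 14 and 2. Without mxl-2 replicate 1 or 3 there were 5 lower and 1 higher each, without eat-2;mxl-2 replicate 1, 4 and 1, with the length offset 7 and 1, with the sperm covariate 6 and 6, and over the 6 libraries alone 2 and 1. The nas-27 gene had 0.186, 0.227 and 0.09 CPM in the double mutant and 18.3, 0.121 and 23.1 CPM in mxl-2, with mxl-2 replicate 2 inside the range of the double mutant, and its log2 fold change was -6.93 without that library. The collagen genes rol-6, rol-8 and sqt-2, mutations in which can make worms roll, had mxl-2 replicate 2 at 0.081, 0.162 and 0.283 CPM, below all 3 double mutant libraries. Their log2 fold changes were -5.97, -6.49 and -6.84, and -6.55, -7.08 and -7.42 without that library, and over the 6 libraries alone none of the 3 passed. By contrast the lectin genes clec-166 and clec-1 were clear of mxl-2 replicate 2. Levels of clec-166 were 22.7, 17.5 and 20.4 CPM in the double mutant and 1.89, 0.688 and 2.85 CPM in mxl-2 (log2 fold change 3.48 ± 0.56 SE, adjusted p = 0.000103, edgeR), and those of clec-1 were 309, 200.4 and 311 CPM in the double mutant and 111, 71.3 and 103 CPM in mxl-2 (log2 fold change 1.52 ± 0.26 SE, adjusted p = 0.000154).

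The share of genes called between the strains on daf-16 RNAi differed by chromosome as a description, with 40.9% on I, 36.9% on II, 40.2% on III, 37.1% on IV, 31.5% on V and 29.9% on X.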
